A study of Mus musculus with 27 samples.

Results

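The immediate early genes described here are 10 genes of the read count table, which lists 55416 genes, and they were chosen by name: Fos, Fosb, Junb, Egr1, Arc, Npas4, Ier2, Dusp1, Nr4a1 and Klf6. All 10 were found once in the table by their symbols, and each was measured in all 27 libraries. The libraries are polyadenylated RNA of the whole brain of female fetuses, with 3 libraries for each of 3 strains on gestational days 12, 15 and 17 (d12, d15 and d17), where the day of the vaginal plug is day 1. Neither AKR/J nor C57BL/6J, both inbred, was treated or engineered. The third strain, labelled B6.Cg-Cav1tm1Mls/J and called Cav1-null, carries a targeted null allele of Cav1, the gene of the caveola protein caveolin 1, and is congenic with C57BL/6J. The sources used here do not say whether the 3 fetuses of a group came from different litters, so the p-values measure the spread between these libraries. The study asked how gene expression of the developing brain differed among these strains between d12 and d15 (the early phase) and between d15 and d17 (the late phase).

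Immediate early genes are switched on within minutes of a stimulus by transcription factors that already sit in the cell, without the need for new protein. In neurons the signal is usually calcium entry or a growth factor, which acts through kinases on CREB, SRF with its ternary complex partners, and MEF2. Most of the genes encode transcription factors, which in turn switch on late response genes, while others act directly at synapses or switch off the kinases. Their RNA is short-lived, so its level follows the recent transcription of the gene.

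The libraries held 26363697 to 39759702 reads on genes. Cav1 was at 0 to 0.509 CPM (reads per 1000000 reads on genes, after TMM scaling of library sizes) in the 9 Cav1-null libraries, against 9.25 to 34.2 CPM in those of AKR/J and 10.4 to 39.9 CPM in those of C57BL/6J. Neuronal markers summed to at least 1710 CPM in every library, so the labelled tissue was present throughout. Replicates 1 and 3 of AKR/J d12 stood apart, with TMM factors of 0.679 and 0.688 against 1.073 in replicate 2. In the 3 libraries of that group the 10 erythroid markers summed to between 33200 and 198000 CPM, against 1940 to 4660 CPM in C57BL/6J on the same day, and mitochondrial transcripts took 3.98% to 9.59% of reads against 1.15% to 1.79%. Markers of trophoblast and decidua summed to 33.9, 76.1 and 742 CPM in that group, against 0.284, 0.347 and 63.1 CPM in C57BL/6J d12 and at most 5.44 CPM in every other group. Their part in the results that use AKR/J d12 was not tested.

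The promoters of 3 genes are shown, chosen by their levels. Klf6 was called higher on d17 than on d15 in every strain. Ier2 and Dusp1 were the pair of immediate early genes whose deviations from their group means were most alike. Each sequence is the 250 bases before the start of the canonical transcript in GRCm39, read 5′ to 3′ along the strand of the gene. Capitals mark TGACG on either strand (CGTCA on the strand shown), the core of the cAMP response element bound by CREB, and where it is part of the full palindrome TGACGTCA the whole palindrome is in capitals. The regions are chr8:85389484-85389733 on the minus strand for Ier2, chr17:26727494-26727743 on the minus strand for Dusp1 and chr13:5911231-5911480 on the plus strand for Klf6.
Ier2: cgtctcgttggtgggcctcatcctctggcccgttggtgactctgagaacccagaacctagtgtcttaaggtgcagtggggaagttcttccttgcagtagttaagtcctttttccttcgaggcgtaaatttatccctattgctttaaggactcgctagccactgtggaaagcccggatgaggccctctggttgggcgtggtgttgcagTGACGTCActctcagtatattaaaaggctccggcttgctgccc
Dusp1: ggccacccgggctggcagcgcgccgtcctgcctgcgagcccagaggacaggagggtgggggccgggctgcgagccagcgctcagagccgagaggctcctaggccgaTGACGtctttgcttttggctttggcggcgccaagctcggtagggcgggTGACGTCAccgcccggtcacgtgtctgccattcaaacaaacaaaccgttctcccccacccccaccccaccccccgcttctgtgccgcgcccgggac
Klf6: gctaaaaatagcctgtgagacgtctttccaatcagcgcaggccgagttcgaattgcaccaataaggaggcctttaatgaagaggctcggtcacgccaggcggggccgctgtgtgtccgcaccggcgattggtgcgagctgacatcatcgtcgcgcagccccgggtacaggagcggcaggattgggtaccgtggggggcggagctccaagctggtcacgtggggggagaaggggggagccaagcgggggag

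The palindrome TGACGTCA began 43 bases before the start of Ier2 and 96 bases before that of Dusp1 and was found in no other of the 9 promoters searched, against 1.69% of 21770 promoters of protein-coding genes of the same length. TGACG on either strand, which the palindrome contains, was found in 7 of the 9 (Fos, Fosb, Junb, Egr1, Ier2, Dusp1 and Nr4a1) and in 18% of all promoters. These letters were not in the windows of Arc and Klf6. The TATA sequence TATAAA, searched on both strands, was in 3 of the 9 (Fos, Junb and Nr4a1) and in 11.9% of all promoters. None of the 9 windows held a CArG box, the element bound by SRF (1.4% of all promoters), GCGTGGGCG, the element bound by EGR1 (0.547%), or TGANTCA, the element bound by AP-1 (6.17%), all searched on both strands. GC content was 59.6% to 72.4% in the windows of Fos, Fosb, Junb, Arc, Dusp1, Nr4a1 and Klf6 and 52.8% in that of Ier2. Its median over all promoters was 53.2%, and the shares were not adjusted for it. Matches describe the letters of these windows, and elements farther from the start were not searched.

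The 10 genes differed widely in level. Per kilobase of the canonical transcript, the median over the 27 libraries was 18.5 CPM for Klf6, 9.2 for Dusp1, 6.97 for Ier2, 3.43 for Nr4a1, 2.75 for Npas4, 1.71 for Junb, 0.609 for Arc, 0.583 for Egr1, 0.476 for Fos and 0.0572 for Fosb. Fos, Fosb, Egr1 and Arc were thus the lowest per length in these fetal brains. Npas4, which neurons make upon calcium entry, lay above Junb. Fosb had 0 to 23 reads per library and Fos 6 to 87, so that changes in these genes were measured with little precision. Klf6 varied least over the libraries, by 1.9-fold between the lowest and the highest, and Fos (18.8-fold) and Npas4 (17.3-fold) varied most among the 9 genes with reads in every library.

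**Figure D1:**
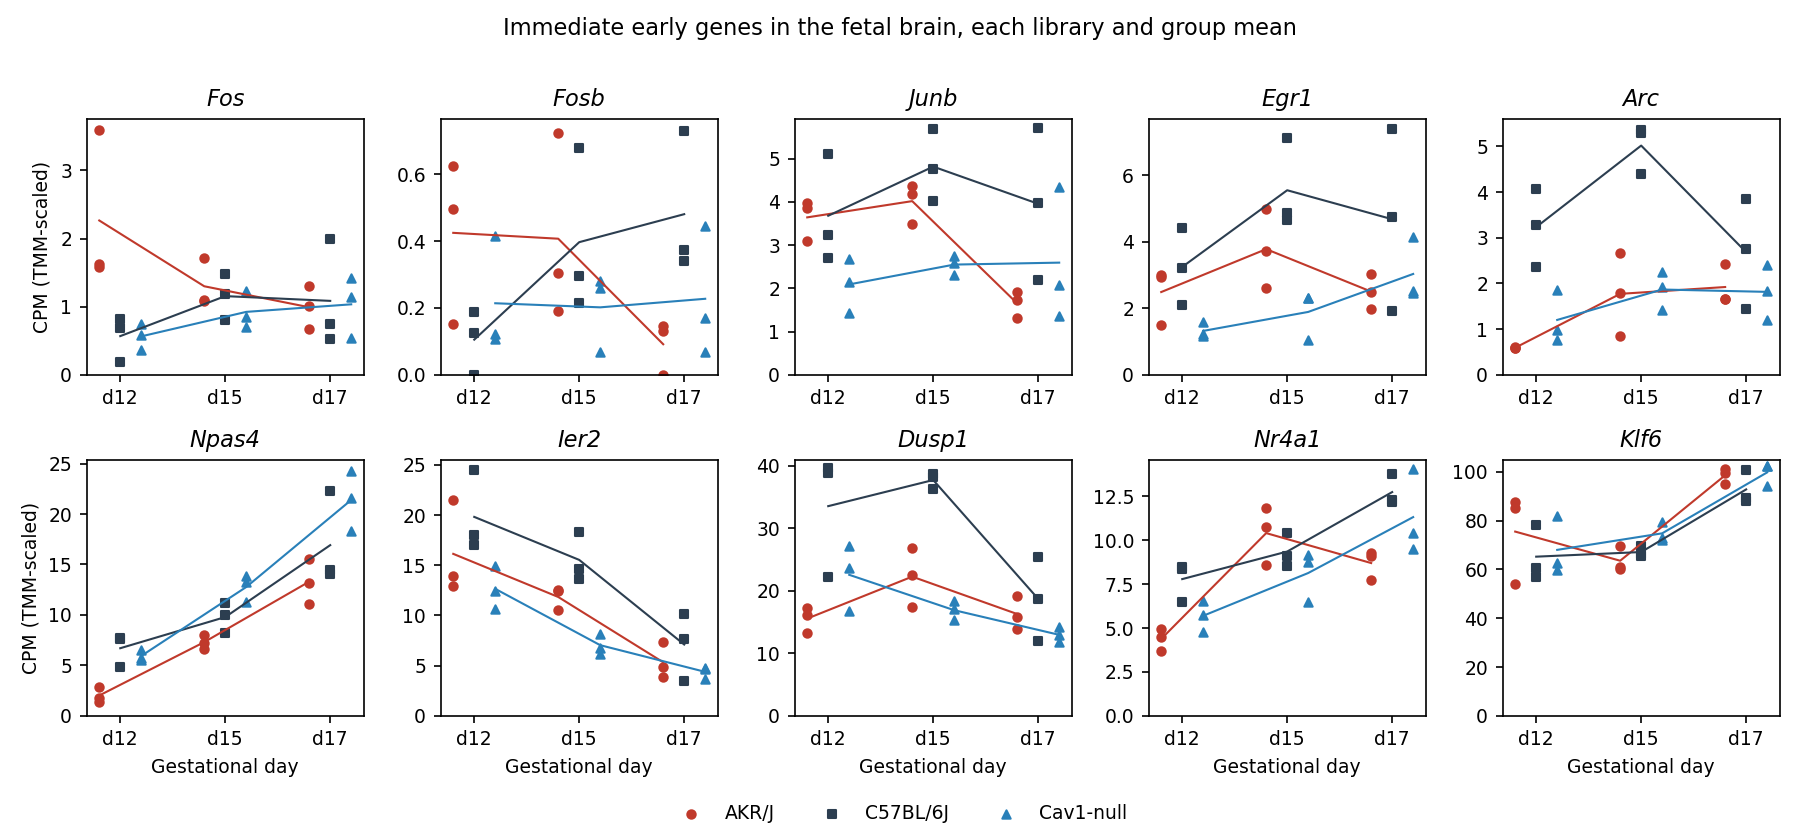
Level of each immediate early gene in every library, in TMM-scaled CPM on linear axes that start at 0, by gestational day. Points are libraries (circles AKR/J, squares C57BL/6J, triangles Cav1-null) and lines join the means of 3 libraries. Npas4 rises from 1.4 CPM in its lowest d12 library to 24.2 CPM in its highest d17 library, and Ier2 runs the other way.

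Comparisons of days were fitted on the 6 libraries of a strain with edgeR's quasi-likelihood test, and calls were made at a p, adjusted by Benjamini-Hochberg, under 0.05 over all genes tested. Log2 fold changes are the later over the earlier day with their standard error, and all adjusted p-values are from this test. In the early phase 2 of the 10 tested genes were called in AKR/J (both higher), where 28.9% of all genes tested were called. None of 9 was called in C57BL/6J (14.9% of all genes), where 2 had an unadjusted p under 0.05, as did 6885 of 19154 genes. DESeq2 called 0 of the 9 there and 4893 of 19154 genes. In Cav1-null fetuses 2 of 9 were called (1 higher, 1 lower, beside 23.4% of all genes). In the late phase 4 of 9 were called in AKR/J (2 higher, 2 lower; 22.1%), 2 of 10 in C57BL/6J (both higher; 13%) and 4 of 9 in Cav1-null fetuses (2 higher, 2 lower; 27.3%). The median log2 fold change of the immediate early genes tested lay between -0.38 and 0.51 over the 6 comparisons, against -0.04 to 0.03 for all genes. Every call of Npas4, Klf6 and Nr4a1 between days was higher on the later day, and every call of Ier2, Dusp1 and Junb was lower. Calls do not give the whole course, since Dusp1 was higher on d15 than on d12 in AKR/J without overlap (0.47, not called) and Junb had positive log2 fold changes in 4 of the 6 comparisons. Between days the libraries of 40.9% to 47.4% of all genes tested did not overlap, so a lack of overlap alone was common.

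Npas4 is a bHLH-PAS transcription factor that is made in neurons upon calcium entry and controls the balance of excitatory and inhibitory synapses. Its level in AKR/J was 1.4, 2.86 and 1.78 CPM on d12, 7.2, 6.67 and 8.06 CPM on d15, and 11.1, 13.2 and 15.6 CPM on d17. The 3 days did not overlap in this strain. It rose in the early phase (log2 fold change 1.80, SE 0.35, adjusted p = 0.00779) and again in the late phase (0.88, SE 0.17, adjusted p = 0.00862). In Cav1-null fetuses it was 6.55, 5.73 and 5.53 CPM on d12, 13.2, 13.8 and 11.3 CPM on d15, and 21.6, 24.2 and 18.4 CPM on d17. Here too the days were apart, and Npas4 rose in the early phase (1.11, SE 0.16, adjusted p = 0.00217) and in the late phase (0.75, SE 0.13, adjusted p = 0.000644). In C57BL/6J it was 7.67, 7.63 and 4.8 CPM on d12, 8.24, 11.2 and 9.97 CPM on d15, and 14.1, 22.2 and 14.4 CPM on d17. The early difference in C57BL/6J was not called (0.50, SE 0.22, adjusted p = 0.156) although the libraries of the days did not overlap, and the late rise was (0.85, SE 0.22, adjusted p = 0.042). That call was lost without any 1 of the d15 replicates 1, 2 and 3 or without d17 replicate 2 or 3, with log2 fold changes of 0.62 to 0.93 and adjusted p = 0.0519 to 0.15. The late call in Cav1-null fetuses was lost with all 27 libraries in 1 model (0.74, adjusted p = 0.0731).

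Among the 9 groups the mean of Npas4 was highest in Cav1-null d17 (21.4 ± 2.94 CPM, SD, n = 3) and lowest in AKR/J d12 (2.02 ± 0.759 CPM). All 3 strains had their highest mean on d17 and their lowest on d12. In the order of the means, AKR/J d12 lay below the next group, Cav1-null d12, without overlap, while the neighbours from Cav1-null d17 down to Cav1-null d15 overlapped. The sums of neuronal markers were 1710 to 2170, 3740 to 5470 and 5400 to 5550 CPM on the 3 days of AKR/J, and 4080 to 5170, 5080 to 5260 and 5610 to 5820 CPM in Cav1-null fetuses. In C57BL/6J they were 3270 to 5540, 6230 to 7020 and 5050 to 7130 CPM. The sums overlapped between d15 and d17 in AKR/J and C57BL/6J, and between d12 and d15 in Cav1-null fetuses. The part of neurons in the level of Npas4 was not tested. In whole brain RNA, fewer cells of a type and less RNA per cell cannot be told apart.

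Klf6, a zinc finger transcription factor of the Krüppel-like family that supports axon growth and endothelial responses, was the most abundant of the 10 and was called only in the late phase of the 6 comparisons of days. On d15 it was 60.3, 69.4 and 60.9 CPM in AKR/J, 66.4, 65.4 and 69.5 CPM in C57BL/6J, and 72.1, 79.2 and 72.9 CPM in Cav1-null fetuses. On d17 it was 95.1, 101 and 99.6 CPM in AKR/J, 88, 89.4 and 101 CPM in C57BL/6J, and 94.3, 102 and 102 CPM in Cav1-null fetuses. Every d17 library was thus above every d15 library, across all strains. Klf6 rose in AKR/J (0.65, SE 0.09, adjusted p = 0.0022), C57BL/6J (0.53, SE 0.12, adjusted p = 0.0297) and Cav1-null fetuses (0.42, SE 0.07, adjusted p = 0.000893). The C57BL/6J call was lost without any 1 of the d15 replicates or without d17 replicate 3 (0.44 to 0.56, adjusted p = 0.101 to 0.15), and the Cav1-null call with all 27 libraries in 1 model (0.41, adjusted p = 0.134). Between d12 and d15 its log2 fold changes were -0.29, -0.01 and 0.14 in AKR/J, C57BL/6J and Cav1-null fetuses, none of them called. Without AKR/J d12 replicate 2, the lowest library at 53.9 CPM, the early difference in AKR/J was -0.51 and called lower (adjusted p = 0.0111). Before TMM scaling replicates 1, 2 and 3 of that group were alike, at 57.7, 57.8 and 60.1 reads per 1000000. Replicates 1 and 3, which were kept, had TMM factors of 0.679 and 0.688. Without Cav1-null d12 replicate 3 (81.7 CPM) the early difference of Cav1-null fetuses was 0.30 and called higher (adjusted p = 0.0168).

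Nr4a1, an orphan nuclear receptor also known as Nur77, was 4.95, 4.48 and 3.71 CPM in AKR/J on d12 and 8.61, 11.9 and 10.7 CPM on d15. It rose in this strain in the early phase (1.20, SE 0.26, adjusted p = 0.0115), a call that was lost without d15 replicate 3 (1.19, adjusted p = 0.0522). On d17 AKR/J had 9.28, 7.74 and 9.09 CPM, which overlapped d15. In C57BL/6J and Cav1-null fetuses its late log2 fold changes were 0.50 (adjusted p = 0.0703) and 0.48 (adjusted p = 0.0537), without overlap between the libraries of the days but not called. DESeq2 called both (adjusted p = 0.0259 and 0.0331). Part of its exons overlaps an antisense transcript, and whether reads were counted by strand is not given in the sources used here.

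Ier2 is a nuclear protein that is made early after growth factor stimulation and takes part in transcription. It was the gene of the 10 with the most calls lower on a later day, 3 of the 6 comparisons. In AKR/J it was 21.5, 12.9 and 14 CPM on d12, 12.5, 10.6 and 12.4 CPM on d15, and 7.33, 3.84 and 4.84 CPM on d17. In Cav1-null fetuses it was 14.9, 12.5 and 10.6 CPM on d12, 8.2, 6.72 and 6.21 CPM on d15, and 3.68, 4.82 and 4.65 CPM on d17. The 3 days were apart in both strains. Ier2 fell in Cav1-null fetuses in the early phase (-0.84, SE 0.18, adjusted p = 0.0123) and in the late phase (-0.68, SE 0.17, adjusted p = 0.0107), and in AKR/J in the late phase (-1.13, SE 0.24, adjusted p = 0.0127). In C57BL/6J it was 18, 24.5 and 17 CPM on d12, 18.4, 13.7 and 14.6 CPM on d15, and 10.1, 3.52 and 7.69 CPM on d17. The late difference of C57BL/6J was -1.06 (SE 0.37, adjusted p = 0.0916), not called, though every d17 library was below every d15 library, and DESeq2 called it (adjusted p = 0.022). Single libraries decided several of these calls. The early call of Cav1-null fetuses was lost without d12 replicate 1 or without d15 replicate 2 or 3 and in the model of all 27 libraries (-0.84 to -0.72, adjusted p = 0.0523 to 0.0616), the late one without d15 replicate 1 (-0.55, adjusted p = 0.0569) and in the model of all libraries (-0.68, adjusted p = 0.222), and that of AKR/J without d17 replicate 2 or 3 (-1.07 to -0.94, adjusted p = 0.0563 to 0.0688).

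The sum of 8 neural progenitor markers moved in the same direction as Ier2. It was 2100 to 2150, 1210 to 1480 and 464 to 657 CPM on d12, d15 and d17 in AKR/J, 2100 to 2870, 1630 to 1850 and 390 to 772 CPM in C57BL/6J, and 1300 to 2070, 731 to 741 and 404 to 407 CPM in Cav1-null fetuses. No progenitor marker was called higher in any of the 6 comparisons of days, and 4 to 7 of the 8 were called lower. Of all genes, 5.58% to 14% were called lower in these comparisons. The part of these cells in the fall of Ier2 was not tested.

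Dusp1 encodes a phosphatase of the nucleus that switches off the MAP kinases and so ends the signal that induced the gene. It was 38.7, 38.3 and 36.2 CPM in C57BL/6J on d15 and 25.5, 12 and 18.6 CPM on d17, and 17.1, 18.3 and 15.3 CPM in Cav1-null fetuses on d15 and 11.8, 14.2 and 12.9 CPM on d17. In both strains the libraries of the days did not overlap. Dusp1 fell in the Cav1-null late phase (-0.38, SE 0.12, adjusted p = 0.0268), and the larger difference of C57BL/6J was just short of the threshold (-0.95, SE 0.26, adjusted p = 0.0526). The Cav1-null call was lost without d15 replicate 1 or 2, without d17 replicate 1 or 3 and in the model of all libraries (-0.38 to -0.31, adjusted p = 0.0762 to 0.442). In C57BL/6J the difference was called under all 5 other settings of normalization, filter, test and model (-1.01 to -0.83, adjusted p = 0.00462 to 0.0486).

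Junb, an AP-1 subunit that pairs with Fos proteins, fell in the AKR/J late phase, from 4.37, 3.49 and 4.19 CPM on d15 to 1.91, 1.74 and 1.3 CPM on d17 (-1.26, SE 0.24, adjusted p = 0.00891). The call was kept under every setting and without any 1 library. In the same phase the log2 fold change was -0.22 in C57BL/6J and 0.03 in Cav1-null fetuses, where the libraries of the days overlapped. Of their 2381 bases the exons of Junb share 173 with Prdx2 and 145 with Gm65321, a long noncoding RNA gene, both on the other strand. Reads of these bases cannot be told apart if strand was not used in counting. Prdx2 is a peroxidase that red blood cells make in large amounts. The erythroid markers of AKR/J summed to 2010 to 3070 CPM on d15 and 3460 to 18600 CPM on d17. The part of antisense reads in the counts of Junb was not tested.

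Fos, Fosb, Egr1 and Arc were not called in any comparison of days. Fos, the partner of Jun proteins in AP-1, was 3.59, 1.58 and 1.63 CPM in AKR/J on d12 and 0.668 to 1.3 CPM on d17, while in C57BL/6J it was 0.191 to 0.821 CPM on d12 and 0.525 to 1.99 CPM on d17. Its early log2 fold change was -0.85 (SE 0.46) in AKR/J, 0.97 (SE 0.53) in C57BL/6J and 0.70 (SE 0.41) in Cav1-null fetuses. Egr1, a zinc finger factor of plasticity and growth, had early log2 fold changes of 0.56, 0.74 and 0.52 in AKR/J, C57BL/6J and Cav1-null fetuses, and late ones of -0.58, -0.18 and 0.68. Arc, a capsid-like protein that removes AMPA receptors from synapses, was 0.578, 0.593 and 0.61 CPM in AKR/J on d12 and 2.67, 0.856 and 1.79 CPM on d15, so that the days did not overlap (1.53, SE 0.52, adjusted p = 0.0581). This early difference of Arc in AKR/J was called higher by DESeq2 (adjusted p = 0.0459), with library sizes alone (1.97, adjusted p = 0.0366), in the model of all libraries (adjusted p = 0.00484) and without d15 replicate 2 (1.88, adjusted p = 0.035). In C57BL/6J Arc was 3.28, 4.07 and 2.35 CPM on d12, 4.41, 5.28 and 5.37 CPM on d15 and 3.84, 1.45 and 2.76 CPM on d17. The d15 libraries lay above those of both other days, and neither difference was called, though without d17 replicate 1 the late one was called lower (-1.19, adjusted p = 0.0316). Fosb passed the filter on low counts in 2 of the 6 comparisons of days, with log2 fold changes of -0.13 in the AKR/J early phase and 0.34 in the C57BL/6J late phase.

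**Figure D2:**
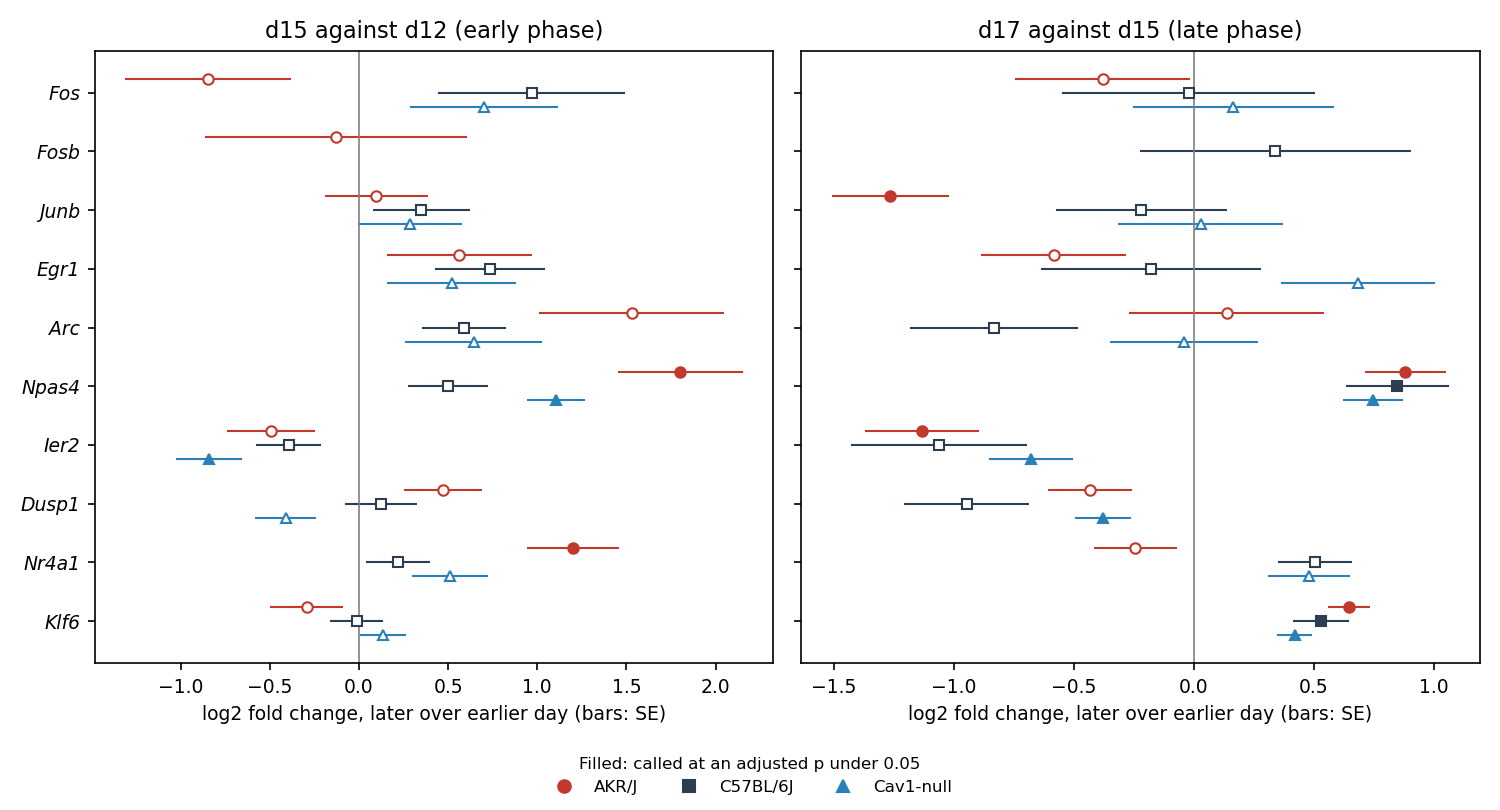
Log2 fold change of each immediate early gene between consecutive days, early phase on the left and late phase on the right, with bars of 1 standard error from edgeR on 6 libraries. Filled symbols are calls at an adjusted p under 0.05, and genes that failed the filter on low counts are left blank. Npas4 and Klf6 are filled on the right in all 3 strains (0.42 to 0.88), and no gene is filled for C57BL/6J on the left.

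A difference between strains in their change from day to day was tested by the interaction of strain and day over 12 libraries. None of the 10 genes was called, of 10 tested in the AKR/J early phase (0.0711% of all genes called), 9 in the Cav1-null early phase (0.00472%), 10 in the AKR/J late phase (0.00468%) and 10 in the Cav1-null late phase (0.252%), each against C57BL/6J. At an unadjusted p under 0.05 there were 3, 0, 3 and 0 of them, and DESeq2 called 1, 0, 0 and 0. The same unadjusted threshold was passed by 3432 of 21090, 3181 of 21191, 1617 of 21373 and 4683 of 21431 of all genes. DESeq2 called 1019, 517, 45 and 1436 of all genes. The larger early difference of Npas4 in AKR/J had an interaction of 1.25 (SE 0.41, adjusted p = 0.176), and that of Nr4a1 had 0.93 (SE 0.29, adjusted p = 0.169). Both were called in the model of all 27 libraries (adjusted p = 0.0232 and 0.0309), Nr4a1 also by DESeq2 (adjusted p = 0.045) and Npas4 without AKR/J d12 replicate 2 (1.59, adjusted p = 0.0137). In the Cav1-null late phase the interaction of Dusp1 was 0.54 (adjusted p = 0.298), and without C57BL/6J d17 replicate 1 it was 0.92 and called (adjusted p = 0.00936). The different sets of calls in the strains are therefore not shown to be different changes.

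Strains were compared with C57BL/6J on each day, and both sets of comparisons share the C57BL/6J libraries. On d15, 7 of 9 tested genes were called in Cav1-null fetuses, where 58.6% of all genes were called, and 2 of 10 in AKR/J (41.1%). In Cav1-null fetuses 5 of the 7 were lower: Egr1 (-1.51, SE 0.31, adjusted p = 0.00189), Arc (-1.38, SE 0.22, adjusted p = 0.000341), Dusp1 (-1.12, SE 0.09, adjusted p = 2.56e-06), Ier2 (-1.10, SE 0.16, adjusted p = 0.000212) and Junb (-0.88, SE 0.20, adjusted p = 0.00392). Npas4 (0.43, SE 0.14, adjusted p = 0.0263) and Klf6 (0.20, SE 0.06, adjusted p = 0.0151) were higher. The median over the 9 genes was -0.88, against 0.03 over all genes tested. Of all genes, 31.8% were called lower and 26.8% higher.

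The libraries behind these calls were far apart for Arc, at 4.41, 5.28 and 5.37 CPM in C57BL/6J against 1.92, 2.26 and 1.42 CPM in Cav1-null fetuses and 2.67, 0.856 and 1.79 CPM in AKR/J. Egr1 was 7.13, 4.66 and 4.87 CPM in C57BL/6J, 2.3, 2.33 and 1.05 CPM in Cav1-null fetuses and 3.74, 4.99 and 2.62 CPM in AKR/J. Dusp1 was 38.7, 38.3 and 36.2 CPM in C57BL/6J, 17.1, 18.3 and 15.3 CPM in Cav1-null fetuses and 22.6, 17.4 and 26.8 CPM in AKR/J. The C57BL/6J libraries of d15 lay above all other d15 libraries for Arc and Dusp1, and for Egr1 they overlapped AKR/J. In AKR/J the genes called on d15 were Arc (-1.44, SE 0.37, adjusted p = 0.0184) and Dusp1 (-0.70, SE 0.13, adjusted p = 0.00529). The call of Arc was lost without C57BL/6J d15 replicate 2 or 3 or without AKR/J d15 replicate 3 (-1.45 to -1.40, adjusted p = 0.0508 to 0.0612). For Cav1-null fetuses the calls of Egr1, Arc, Ier2 and Dusp1 were kept under every setting and without any 1 library, and that of Junb was lost in the model of all 27 libraries (-0.92, adjusted p = 0.0504). Npas4 was no longer called in that model, without C57BL/6J d15 replicate 1 or 3 or without Cav1-null d15 replicate 1 or 2 (0.32 to 0.43, adjusted p = 0.0553 to 0.203), nor Klf6 in that model, with no filter on low counts or without Cav1-null d15 replicate 2 (0.16 to 0.17, adjusted p = 0.0655 to 0.442).

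Marker lists of several cell types differed on d15 as well, read beside the shares of all genes called lower, 31.8% in Cav1-null fetuses and 22.3% in AKR/J. In Cav1-null fetuses the 8 neural progenitor markers summed to 731 to 741 CPM against 1630 to 1850 CPM in C57BL/6J, and all 8 were called lower. The 9 endothelial markers summed to 77.4 to 97.2 CPM against 244 to 333 CPM, with 8 called lower, and the 8 neuronal markers to 5080 to 5260 CPM against 6230 to 7020 CPM, with 6 called lower and 2 higher. Erythroid markers summed to 2910 to 3620 CPM against 824 to 1070 CPM. Connective tissue markers summed to 80.1 to 181 CPM against 352 to 5150 CPM, the highest value being a single C57BL/6J library. In AKR/J on d15, progenitor markers summed to 1210 to 1480 CPM, endothelial markers to 116 to 144 CPM and neuronal markers to 3740 to 5470 CPM. Of 8 heat shock genes, whose products protect stressed proteins and are induced fast by stress, 5 were called lower on d15 in Cav1-null fetuses and 1 higher, and 6 lower and 1 higher in AKR/J. Summed over the 8 genes, every Cav1-null d15 library (2240 to 2260 CPM) nonetheless lay above every C57BL/6J d15 library (1860 to 2210 CPM). The AKR/J d15 libraries had sums of 1610 to 1870 CPM, which overlapped those of C57BL/6J. Mitochondrial transcripts took 1.21% to 1.31% of reads in C57BL/6J d15, 3.18% to 3.71% in Cav1-null d15 and 2.26% to 2.69% in AKR/J d15, without overlap. The part of these markers, genes and transcripts in the levels of the immediate early genes was not tested.

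**Figure D3:**
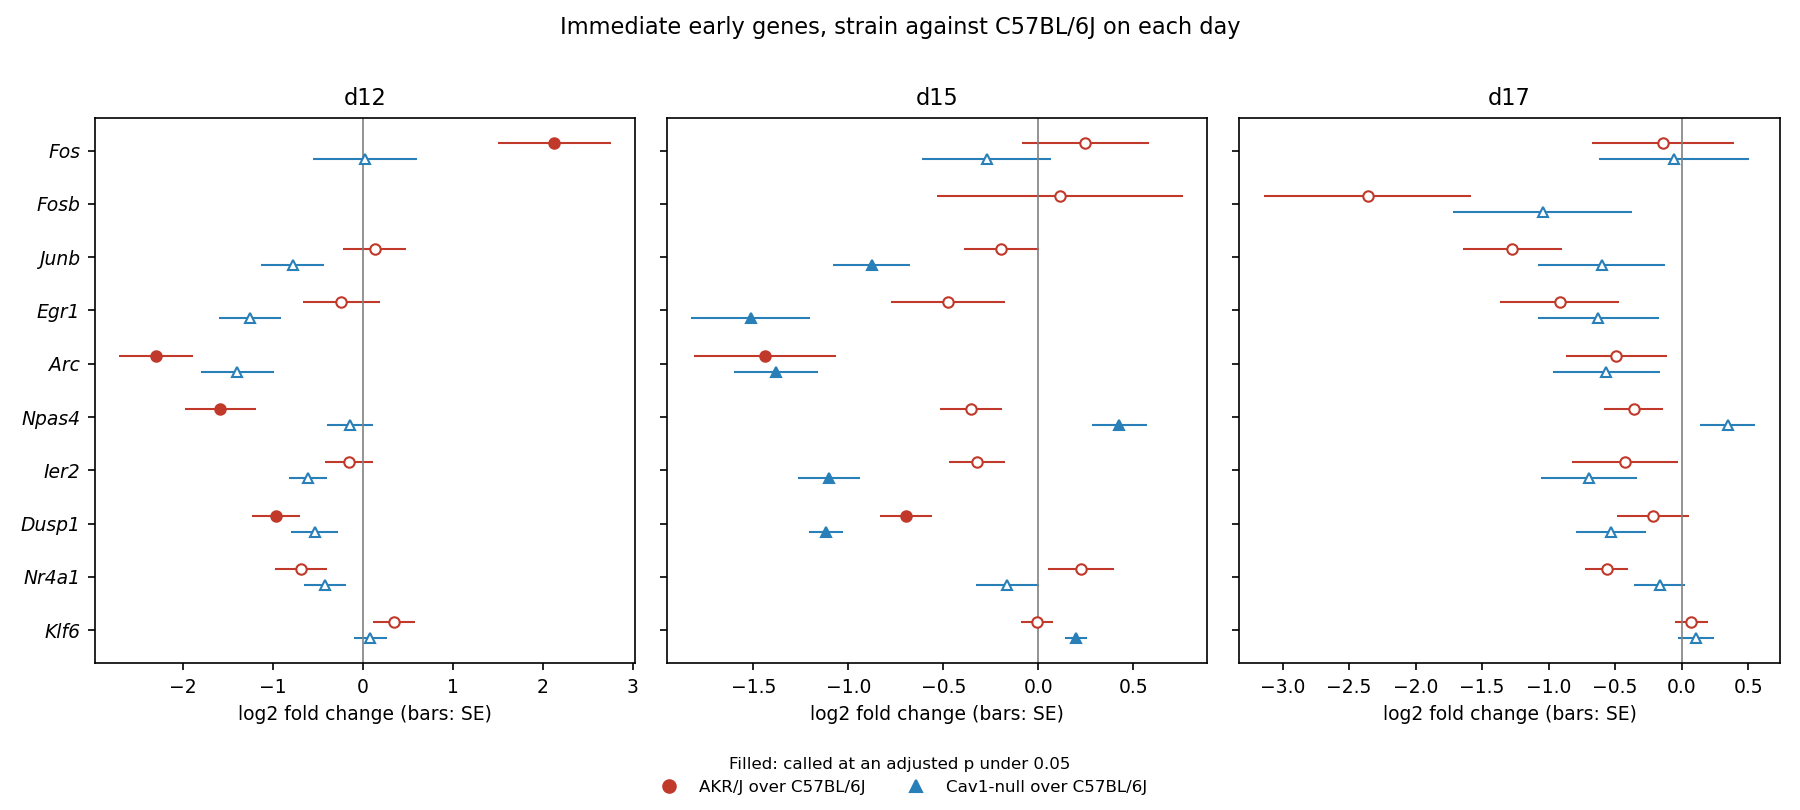
Log2 fold change of each immediate early gene in AKR/J (circles) and Cav1-null fetuses (triangles) over C57BL/6J on d12, d15 and d17, with bars of 1 standard error from edgeR on 6 libraries. Filled symbols are calls at an adjusted p under 0.05. On d15 Egr1, Arc, Dusp1, Ier2 and Junb of Cav1-null fetuses lie between -1.51 and -0.88, and on d17 no symbol is filled.

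On d12, 4 of 9 tested genes were called between AKR/J and C57BL/6J, where 28.6% of all genes were called. Arc was lower in AKR/J (0.578, 0.593 and 0.61 CPM against 3.28, 4.07 and 2.35 CPM; log2 fold change -2.29, SE 0.41, adjusted p = 0.0115). Npas4 was lower too (1.4, 2.86 and 1.78 CPM against 7.67, 7.63 and 4.8 CPM; -1.58, SE 0.39, adjusted p = 0.0216), as was Dusp1 (17.2, 16.2 and 13.3 CPM against 38.8, 39.6 and 22.3 CPM; -0.97, SE 0.26, adjusted p = 0.0289). Fos was the single gene called higher, with 3.59, 1.58 and 1.63 CPM against 0.821, 0.694 and 0.191 CPM (2.13, SE 0.63, adjusted p = 0.0363). No library of AKR/J overlapped one of C57BL/6J for these 4 genes, as for 49.5% of all genes tested. Leaving out 1 library ended each of these calls in some cases, while the differences kept their direction. Arc lost its call without C57BL/6J d12 replicate 2 (-2.14, adjusted p = 0.0622), and Npas4 and Dusp1 lost theirs without C57BL/6J d12 replicate 1 or 2 or AKR/J d12 replicate 1 or 3 (-1.53 to -1.39, adjusted p = 0.0738 to 0.0898, and -1.05 to -0.85, adjusted p = 0.0729 to 0.112). Fos lost its call without C57BL/6J d12 replicate 1, 2 or 3 or AKR/J d12 replicate 1 or 3, and with library sizes alone (1.62 to 2.49, adjusted p = 0.0678 to 0.136). The blood markers of the AKR/J d12 libraries, given above, moved with these differences, and so did the neuronal markers, at 1710 to 2170 CPM against 3270 to 5540 CPM. Endothelial markers summed to 82.3 to 120 CPM against 168 to 317 CPM, with 4 of 9 called lower, and 4 of 5 yolk sac markers were called higher. Their part in these differences was not tested.

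between Cav1-null and C57BL/6J fetuses on d12 none of 9 tested genes was called. No gene of the whole table was called (0% of 19475) in edgeR, where 4309 genes and 3 of the 9 had an unadjusted p under 0.05, while DESeq2 called 2044 genes and 0 of the 9. Arc (-1.39, SE 0.41, adjusted p = 0.12), Egr1 (-1.26, SE 0.34, adjusted p = 0.112) and Ier2 (-0.61, SE 0.21, adjusted p = 0.152) were the 3 with an unadjusted p under 0.05, each with every Cav1-null library below every C57BL/6J library. The same held for Junb and, in either direction, for 30.6% of all genes tested. In the model of all 27 libraries Arc was called (-1.43, adjusted p = 0.0332). On d17, 0 of 10 genes were called in Cav1-null fetuses (0.0491% of all genes), with 0 at an unadjusted p under 0.05 and 0 by DESeq2, and 0 of 10 in AKR/J (0.742%), with 3 at an unadjusted p under 0.05. These 3 were Junb (-1.27, SE 0.37, adjusted p = 0.159), Nr4a1 (-0.56, SE 0.16, adjusted p = 0.157) and Fosb (-2.36, SE 0.78, adjusted p = 0.179). DESeq2 called Junb (adjusted p = 0.0326) and Nr4a1 (adjusted p = 0.0404) in AKR/J. Of all genes it called 1330 of 20207 there and 48 of 20358 in Cav1-null fetuses. In C57BL/6J d17 replicate 1 was the highest of its group for 7 of the 10 genes and replicate 2 the lowest for 7. Without replicate 2, Ier2 (-1.03, adjusted p = 0.0249), Dusp1 (-0.78, adjusted p = 0.0291) and Npas4 (0.57, adjusted p = 0.048) were called in Cav1-null fetuses, and Junb (-1.54, adjusted p = 0.00794) and Egr1 (-1.27, adjusted p = 0.013) in AKR/J.

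Dusp1 was also read from its splice junctions, a second count of the same libraries. Its annotated gene overlaps Ergic1 on the other strand by 38 of 3324 exon bases, and the longest junction listed under Dusp1 lies outside the canonical transcript and ends beyond the gene, so only the 3 junctions inside the canonical transcript were summed. On d15 they gave 8.46, 8.32 and 7.61 CPM in C57BL/6J, 4.27, 3.15 and 6.14 in AKR/J and 3.63, 3.55 and 2.41 in Cav1-null fetuses. The order of the strains was that of the whole-gene counts, and C57BL/6J did not overlap the other strains. On d12 the values were 7.55, 8.67 and 4.89 in C57BL/6J, 4.89, 4.81 and 3.2 in Cav1-null fetuses and 1.61, 2.7 and 1.53 in AKR/J, which did not overlap C57BL/6J.

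The wider set of 34 other immediate early genes, such as Jun, Nr4a3 and Gadd45g, was read from the same fits. On d15 in Cav1-null fetuses 24 of the 31 tested were called, 23 of them lower and 1 higher, with a median log2 fold change of -0.84, against 58.6% of all genes called and 31.8% called lower. In AKR/J 16 of 31 were called on d15, 15 lower and 1 higher, with a median of -0.55, against 41.1% and 22.3% of all genes. The largest difference in Cav1-null fetuses was that of Jun, the main AP-1 partner of Fos (-1.91, SE 0.07, adjusted p = 1.92e-08), and in AKR/J that of Nr4a3, an orphan nuclear receptor (-2.22, SE 0.15, adjusted p = 0.000149). On d12, 8 of 31 were called in AKR/J (3 higher, 5 lower), a share near the 28.6% of all genes. In Cav1-null fetuses 0 of 31 were called (0% of all genes), and 14 had an unadjusted p under 0.05, as did 4309 of all 19475 genes. On d17, 0 of 32 were called in either strain, with 14 and 8 at an unadjusted p under 0.05 in AKR/J and Cav1-null fetuses, beside 4275 of 20207 and 1538 of 20358 of all genes.

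Between days, 9, 7 and 11 of the 31 others were called between d12 and d15 in AKR/J, C57BL/6J and Cav1-null brains (4, 3 and 3 higher), and 8 of 31, 5 of 32 and 12 of 31 in the late phase (3, 0 and 7 higher). Of all genes 28.9%, 14.9% and 23.4% were called early and 22.1%, 13% and 27.3% late. The counts of AKR/J and the late count of C57BL/6J were thus near the share of all genes. Gadd45g, a stress and differentiation gene, had the largest late change of the list in all 3 strains, with log2 fold changes of -1.47, -1.72 and -1.46 in AKR/J, C57BL/6J and Cav1-null fetuses (adjusted p = 0.00197, 0.00442 and 2.09e-06). In the early phase Nr4a3 had the largest change in C57BL/6J (2.04, SE 0.35, adjusted p = 0.0209) and in Cav1-null fetuses (1.60, SE 0.17, adjusted p = 0.000604). Atf3, a stress-induced factor, had it in AKR/J (-1.61, SE 0.50, adjusted p = 0.0421).

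**Figure D4:**
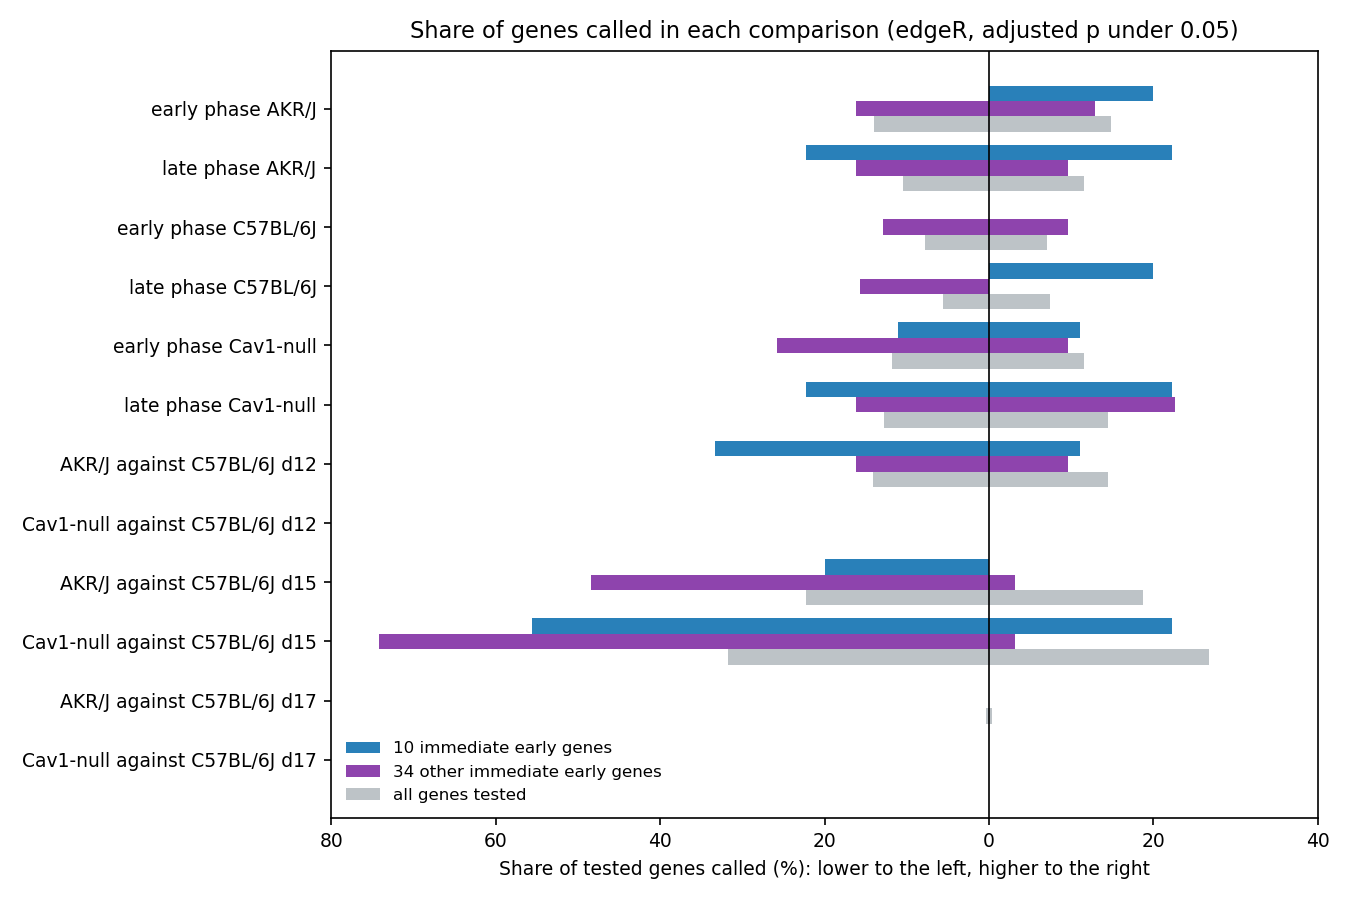
Share of tested genes called lower (left of 0) and higher (right of 0) in each comparison, for the 10 immediate early genes, the 34 other immediate early genes and all genes tested, from edgeR at an adjusted p under 0.05. On d15 in Cav1-null fetuses 5 of 9 and 23 of 31 genes are called lower, against 31.8% of all genes.

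The genes upstream and downstream were listed as well. Of 25 regulators that induce immediate early genes, such as SRF, its cofactors, CREB coactivators, MEF2 factors and the MAP and calmodulin kinases, 17 were called lower on d15 in Cav1-null fetuses and 2 higher, and 16 lower and 1 higher in AKR/J, where 31.8% and 22.3% of all genes were called lower. Mrtfa, the actin-regulated cofactor of SRF, had the largest difference in Cav1-null fetuses (-1.36, SE 0.07, adjusted p = 1.27e-07), and Rps6ka1, a kinase below ERK, in AKR/J (-1.19, SE 0.15, adjusted p = 0.000899). Between days, 6 of 25 were called between d12 and d15 in AKR/J as in C57BL/6J (all higher) and 7 of 25 in Cav1-null fetuses (6 higher), and 7, 4 and 13 in the late phase (5, 2 and 11 higher), beside the shares of all genes given above. Mef2c, a MEF2 factor of neurons and blood vessels, had the largest late change of the list in AKR/J (1.80) and C57BL/6J (1.16). In Cav1-null fetuses it shared that place with Camk4, a calmodulin kinase (both 0.93). Of 11 late response genes, which neurons make after the immediate early factors, 10 were tested. Of these 3, 4 and 3 were called higher in AKR/J, C57BL/6J and Cav1-null brains between d12 and d15, and 4, 3 and 4 between d15 and d17. In C57BL/6J 1 was called lower early, in Cav1-null fetuses 1 late, and none in the other comparisons of days. The shares of all genes called higher were 14.8%, 7.08% and 11.6% early and 11.6%, 7.46% and 14.5% late. In AKR/J the neuropeptide precursor Vgf had the largest change of the list in both phases (3.30, SE 0.57, adjusted p = 0.00525, and 1.48, SE 0.22, adjusted p = 0.00329). On d15, 3 of the 10 late response genes were called higher and 4 lower in Cav1-null fetuses, and 0 higher and 6 lower in AKR/J. Vgf was lower than in C57BL/6J in Cav1-null fetuses (-2.03, SE 0.13, adjusted p = 5.64e-07) and in AKR/J (-2.30, SE 0.16, adjusted p = 0.000161).

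Alternative splicing could be read for Npas4 alone. Of the 10 genes 4 had junctions listed (Dusp1, Klf6, Npas4 and Nr4a1), among 55670 junctions in all, and 3 of the Npas4 junctions describe an internal exon that was either included or skipped. This exon is shown because it is the one alternative exon of the 10 genes that these reads measure. It lies at chr19:5037806-5037915 of GRCm39 on the minus strand and has 110 bases, which leaves a remainder of 2 on division by 3. Capitals mark the exon, and the small letters are the first and last intron bases at its splice sites.
Npas4 exon: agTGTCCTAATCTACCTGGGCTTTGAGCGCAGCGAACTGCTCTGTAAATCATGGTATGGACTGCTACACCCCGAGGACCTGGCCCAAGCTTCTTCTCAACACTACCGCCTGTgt

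The share of Npas4 transcripts with the exon was taken as the mean of the 2 including junctions over that mean plus the skipping junction. Summed over the strains it was 43.9% on d12, from 31 and 27 including and 37 skipping reads. It was 50.9% on d15 (70, 77 and 71 reads) and 67.2% on d17 (141, 150 and 71 reads). By strain the summed share on d12, d15 and d17 was 25%, 50.9% and 58.3% in AKR/J, 41.9%, 49% and 73.1% in C57BL/6J, and 51.9%, 52.2% and 67.5% in Cav1-null fetuses. Single libraries ranged from 9.09% to 100% on d12, where AKR/J had only 2 to 6 such reads per library, from 27.3% to 81.8% on d15 and from 44.8% to 80.6% on d17. Each AKR/J d12 library had a junction at 0, which can stand for reads that the authors removed. The mean of the libraries was 16.6 percentage points higher on d17 than on d12, which an exact two-sided permutation test of the days within strains did not separate from no difference (p = 0.152, 9 libraries a day). This test was chosen after the values were seen. Replicate 3 had the highest share in all 6 groups of d12 and d15, which the test did not take into account. Without AKR/J d12 replicate 3, whose share of 100% came from 2 reads, the difference was 25.3 points (exact permutation p = 0.011), and over the libraries with at least 10 such reads it was 19.6 points (exact permutation p = 0.085).

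**Figure D5:**
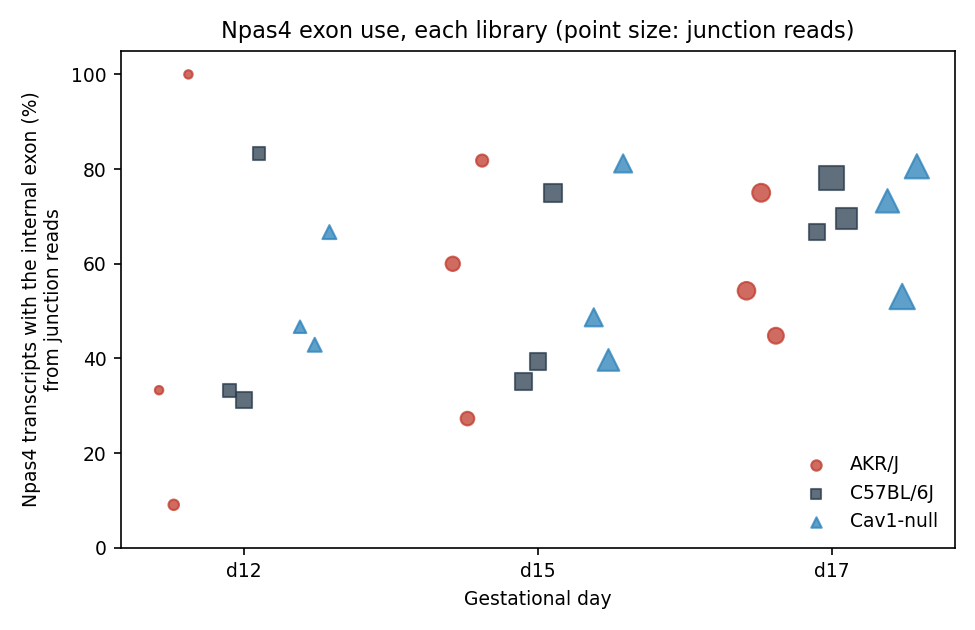
Share of Npas4 transcripts with the internal exon in each library, in percent from junction reads, by gestational day and strain, with the point area growing with the number of junction reads. On d12 the libraries span 9.09% to 100% on few reads, and on d17 they lie between 44.8% and 80.6%.

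How alike the 10 genes varied was described by Pearson correlations over the 27 libraries on log2(CPM + 1), for the 9 genes with a mean of at least 1 CPM. Among the 36 pairs the median r was 0.188, from -0.75 to 0.805, and for deviations from the group mean it was 0.228. Npas4 and Nr4a1 were the most alike in level (r = 0.805), and Ier2 and Dusp1 in their deviations (r = 0.75). The group means and the scaling of each library are shared by all points. For each gene the most similar gene outside the 10 was Hook2 for Npas4 (r = 0.983), Mbd3 for Ier2 (0.974), Kdm1a for Dusp1 (0.971), Wbp2 for Arc (0.934), Gyg for Klf6 (0.905), Entpd5 for Nr4a1 (0.904), Ly6e for Egr1 (0.817), Zbtb7a for Junb (0.792) and Lgals3 for Fos (0.733). The genes whose deviations followed the mean deviation of the 9 most closely, of 16439 genes, were Samm50 (r = 0.912), Irf2bp2 (0.894), Slc35c1 (0.884), Klf16 (0.882) and Mfge8 (0.88).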

How the data were processed

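Polyadenylated RNA of 27 fetal brains was sequenced by the authors, who per the labels and methods used FastQC, cutadapt and fastp for quality control and trimming and STAR for alignment to GRCm39. The deposited table holds raw read counts per gene. The counting tool, its use of strand and its treatment of multi-mapped reads are not given in the sources used here. A second deposited table holds read counts per splice junction from STAR run in 2-pass mode. The authors removed junctions with multi-mapped reads, short overhangs or few reads, so a 0 there can stand for removed reads. Versions of the authors' tools are not given in the sources used here. All sample columns were used.

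The libraries held 26363697 to 39759702 reads on genes, and intervals and standard errors cover the spread between libraries. Genes were filtered with filterByExpr, scaled by TMM and fitted with edgeR 4.0.16 (R 4.3.3) by glmQLFit and glmQLFTest, on the 6 libraries of a comparison or the 12 of an interaction. The p-values were adjusted by Benjamini-Hochberg over all genes tested and called under 0.05, and SE is the log2 fold change divided by the root of F. The script was tested on simulated data with planted changes. DESeq2 1.42.0, other scalings, no filter, 1 model of 27 libraries, a replicate block and leaving out each library were tried as alternatives. CPM are TMM-scaled. All 10 immediate early genes are named, and of each other list the called gene with the largest log2 fold change in a comparison. Cav1 was read to check the labels. Likeness was Pearson's r on log2(CPM + 1) among genes with a mean of at least 1 CPM. The immediate early genes and the 14 other gene lists were chosen with earlier results of these data known. Promoters of 9 genes and an exon were read from GRCm39 with the GENCODE annotation, and some items are not reported here. Python 3.11.15 with numpy 2.4.6, pandas 2.3.3, scipy 1.17.1 and matplotlib 3.10.9 was used for sequences, junctions and figures. The Npas4 exon test was chosen after seeing the data.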

Additional observations from a re-analysis of the deposited data

How the results depend on the processing

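Over the 152 results for single immediate early genes and 2050 values under alternatives, 1952 stayed on their side of the threshold, 53 lost a call, 45 gained one and 0 reversed. Among the 1952, 120 values not called in either fit changed sign. The number of the 10 genes called moved by over 1.5 times as follows. In the C57BL/6J late phase it was 2, and 4 with library sizes alone, 4 with no filter on low counts, 5 with DESeq2 and 4 in the model of all 27 libraries. The calls among all genes rose there too. They were 2594 of 19888 in the main fit, 3067 with library sizes alone and 4581 with DESeq2. In the model of all 27 libraries they were 4565 of 23307. With no filter on low counts, more genes were tested and more were called. The model of all 27 libraries gave 1 in place of 2 in the Cav1-null early phase, 0 in place of 4 in their late phase, 1 in place of 0 against C57BL/6J on d12 (Arc), 4 in place of 7 on d15, and 2 in place of 0 in the early interaction of AKR/J (Npas4 and Nr4a1). Of 23307 genes it called 3056, 829, 1734, 8185 and 1660 in these comparisons. The main fit called 4666 of 19934, 5530 of 20245, 0 of 19475, 11621 of 19827 and 15 of 21090. DESeq2 gave 2 in place of 0 for AKR/J against C57BL/6J on d17 and 1 in place of 0 in the early interaction of AKR/J. It called 1330 of 20207 and 1019 of 21090 genes there, against 150 and 15 in the main fit. The cause was not tested. Moves of 1 gene also occurred: to 3 in the AKR/J early phase (library sizes alone, DESeq2 and the model of all libraries), to 3 in the C57BL/6J late phase (RLE size factors), to 5 in the Cav1-null late phase (no filter and DESeq2), to 3 (library sizes alone) and 5 (the model of all libraries) for AKR/J against C57BL/6J on d12, and to 6 for Cav1-null fetuses on d15 (no filter).

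Leaving out each library in turn, which leaves 2 libraries in 1 group, the number called in AKR/J against C57BL/6J was 0 to 4 on d12, 1 to 2 on d15 and 0 to 2 on d17, and in Cav1-null fetuses against C57BL/6J 0 to 0, 5 to 7 and 0 to 3. Between days it was 1 to 3 in the early and 3 to 5 in the AKR/J late phase, 0 to 0 and 0 to 6 in C57BL/6J, and 1 to 5 and 2 to 4 in Cav1-null fetuses. For the interactions it was 0 to 1 and 0 to 0 for AKR/J and Cav1-null fetuses early, and 0 to 0 and 0 to 1 late.

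The replicate numbers were not shown to pair the samples. Correlations of deviations of same-numbered libraries ran from -0.501 to 0.473, and no comparison had all of them over 0.1. With the replicate number as a block the number called was 3 in the C57BL/6J late phase (Npas4, Ier2 and Dusp1, without Klf6) and 5 in that of Cav1-null fetuses (Nr4a1 in addition), and equal to that without it in the other comparisons. In the C57BL/6J early phase 0 of all 19154 genes were called with the block, against 2850 without it.

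With library sizes alone the split of all called genes moved with the median log2 fold change. In the AKR/J early phase it went from 2958 higher and 2800 lower to 3588 and 1214 (median 0.02 to 0.46), and in the C57BL/6J late phase from 1484 and 1110 to 2099 and 968 (0.03 to 0.17). For AKR/J against C57BL/6J it went from 2797 and 2732 to 1362 and 3153 on d12 (0.02 to -0.38) and from 3696 and 4393 to 5542 and 3281 on d15 (0.06 to 0.23). For Cav1-null fetuses on d15 it went from 5310 and 6311 to 7192 and 4952 (0.03 to 0.22), and in the early interaction of AKR/J from 1 and 14 to 89 and 18 (0.03 to 0.58). No call of the 10 genes reversed under it.

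For the Npas4 exon, with alternatives chosen after seeing the data, permuting days over all strains together gave an exact permutation p = 0.131, and leaving out single libraries gave 10.2 to 25.3 points (exact permutation p = 0.011 to 0.369). Depth limits Fosb and Fos, with 0 to 23 and 6 to 87 reads per library, and the Npas4 junctions.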

Other observations

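Genes of the heat shock and hypoxia responses, which cells switch on under stress and low oxygen, were read from the same fits. The 8 heat shock genes summed to 1270 to 2820 CPM over the 27 libraries and the 8 hypoxia genes to 398 to 798 CPM. Hspa1a, an inducible chaperone, had a lower early change in AKR/J than in C57BL/6J, with an interaction of -3.37 (SE 0.52, adjusted p = 0.0471 in edgeR's quasi-likelihood test), the single call of the heat shock list in the 4 interactions. In the Cav1-null late phase 4 of the 8 hypoxia genes were called higher and none lower, and in the early phase 3 were called lower and none higher. In AKR/J 3 were called lower and none higher in the late phase, and 1 higher and 2 lower in the early phase, and in C57BL/6J 1 higher late and 0 early (2 at an unadjusted p under 0.05). Of all genes, 14.5% were called higher in the Cav1-null late phase and 10.4% lower in that of AKR/J. Between d12 and d15, 11.8% were called lower in Cav1-null fetuses, and 14.8% higher and 14% lower in AKR/J. In C57BL/6J 7.46% were called higher late, and 14.9% were called early in either direction.

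Markers of other cells summed to 33.1 to 80.7 CPM for microglia, 2.44 to 75.8 CPM for skeletal muscle and 37.4 to 1660 CPM for yolk sac endoderm over the 27 libraries.

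Replicate 3 of C57BL/6J d12 was the lowest of its group for 8 of the 10 immediate early genes, and so was replicate 3 of Cav1-null d15.

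In all 6 groups of d12 and d15 replicate 3 had the highest share of Npas4 transcripts with the internal exon, at 66.7% to 100%, against 9.09% to 60% in the other 12 libraries. On d17 this held in 1 of the 3 groups. It was noticed after the values were seen and was not tested.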
